A study of Arabidopsis thaliana with 12 samples.

Results

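AT3G18280 and AT4G22470 are 2 Arabidopsis thaliana genes counted among the lipid transfer protein-like genes. They were taken, by locus, as the probe sets that the platform annotation assigns to 1 gene each, and 1 probe set was found for each gene, which makes 2 of the 13286 genes with a one-gene probe set. They had been picked because, after dexamethasone (DEX), one was higher and the other lower in seedlings carrying an inducible transcription factor. Their response to DEX in those seedlings is therefore given as a description without a test, as is every other comparison that uses the same arrays. The difference between DEX and mock in the wild type shares no array with that response and is tested. The spread in the main test is estimated from all arrays together, so it includes the arrays that chose the genes. A fit of the wild-type arrays alone and an exact permutation test, both given below, do not use those arrays.

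Non-specific lipid transfer proteins are small secreted proteins held together by an 8-cysteine motif whose fold encloses a hydrophobic cavity that can carry lipids. They are found in the cell wall and cuticle, where they have been linked to the delivery of wax, cutin and suberin lipids, and some of them, such as DIR1 and AZI1, act in systemic defence signalling. AT3G18280 belongs to the type 2 class, whose members are short. AT4G22470 belongs to the proline-rich hybrid class, in which a proline-rich stretch precedes the lipid transfer domain, as in AZI1 and EARLI1.

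Transcripts were measured in 9-day-old seedlings on 12 one-colour Affymetrix arrays, with 3 labelled biological replicates in each of 4 groups. These were 35S:LOB-GR seedlings in DEX, 35S:LOB-GR seedlings in mock medium, Columbia wild type (Col) in DEX and Columbia wild type in mock medium. The DEX dose was 5 µM, and all seedlings, mock ones included, were shaken in liquid MS medium for 4 h. The labels give the background of both genotypes as Col-0. The 35S:LOB-GR construct fuses LOB, named after the LATERAL ORGAN BOUNDARIES where its gene is active, to a glucocorticoid receptor domain, and DEX lets this transcription factor enter the nucleus. The 35S promoter is known to be active in most cells, and where the fusion protein was made is not measured here. The sources used here give neither the number of transgenic lines nor whether replicates came from separate sowings, so p-values measure the spread between these samples, which may be partly technical. Levels are log2 values of seedlings with all their tissues pooled, in which fewer cells of a type and less RNA per cell cannot be told apart.

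Arrays of 1 group correlated at 0.992 or higher across probe sets. Measured as the root mean square deviation from the group mean (log2), DEX replicate 1 of 35S:LOB-GR stood at 0.166 and the other 11 arrays at 0.0987 to 0.142. Of the tissue markers listed, RCA of leaves lay between 13.57 and 13.86 on the 12 arrays, EXPA7 of root hairs between 4.73 and 5.44, and EXPA18 between 5.05 and 5.53. None of these 3 markers was called in any comparison, and the other 7 leaf and 8 root markers were not analysed here.

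AT3G18280 was high in 1 of the 4 groups. On the 3 arrays of 35S:LOB-GR in DEX it read 9.61, 9.98 and 9.68 (log2), against 8.33, 8.26 and 8.20 in 35S:LOB-GR in mock medium. In Col it read 7.96, 8.19 and 7.97 in DEX, against 8.29, 8.28 and 8.03 in mock medium. The lowest array of 35S:LOB-GR in DEX lay above every array of the other groups, whose values overlapped in part.

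The group means of AT3G18280 were 9.76 ± 0.20 in 35S:LOB-GR in DEX, 8.26 ± 0.06 in 35S:LOB-GR in mock medium, 8.04 ± 0.13 in Col in DEX and 8.20 ± 0.14 in Col in mock medium (log2, SD, n = 3 each). In 35S:LOB-GR the level in DEX was higher by 1.50 ± 0.11 (log2 difference, SE of the limma fit), or 2.83-fold. Any DEX array of that genotype exceeded any mock array by 1.29 to 1.78. Col in DEX had the lowest mean, and Col in mock medium overlapped with both of its neighbours in that order.

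AT4G22470 went the other way in the same seedlings. It read 6.59, 6.54 and 6.49 (log2) in 35S:LOB-GR in DEX, against 9.09, 9.47 and 9.02 in 35S:LOB-GR in mock medium. In Col it read 8.77, 8.75 and 8.82 in DEX, against 9.59, 9.12 and 9.25 in mock medium. All 3 arrays of 35S:LOB-GR in DEX lay below every other array, and the Col DEX arrays formed a second step, below every mock array of either genotype.

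The group means of AT4G22470 were 6.54 ± 0.05 in 35S:LOB-GR in DEX, 9.20 ± 0.24 in 35S:LOB-GR in mock medium, 8.78 ± 0.03 in Col in DEX and 9.32 ± 0.25 in Col in mock medium (log2, SD, n = 3 each). The level in 35S:LOB-GR was lower in DEX by a log2 difference of -2.66 ± 0.13 (SE), or 6.31-fold. The mock groups of the 2 genotypes overlapped, while the replicate spread in the DEX groups was narrow. Probe sets of the whole table did not overlap between DEX and mock arrays of 35S:LOB-GR in 22.8% of cases, and nothing is read from that share here because this contrast chose the genes.

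**Figure D1:**
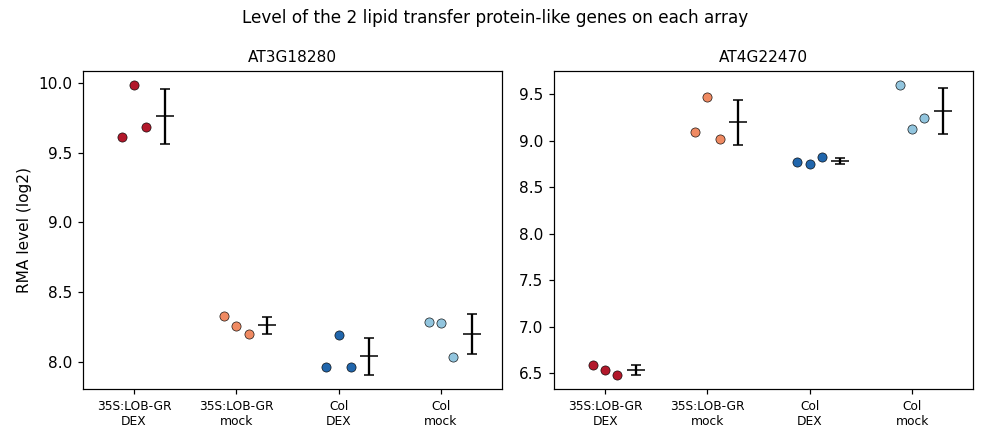
Level of AT3G18280 (left) and AT4G22470 (right) on each of the 12 arrays, in log2 units on axes that do not start at 0. Points are single arrays by group, and the bar beside them gives the mean and SD of 3 arrays; 35S:LOB-GR in DEX stands above the other groups for AT3G18280 (9.76) and below them for AT4G22470 (6.54).

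The response in Col asks whether DEX alone moved the same genes. AT3G18280 was not called in Col, with a log2 difference of -0.16 ± 0.11 (SE) and a 95% interval of -0.40 to 0.08 (limma adjusted p = 0.604). Its DEX and mock arrays overlapped, and an exact two-sided permutation test over the 6 arrays gave p = 0.20.

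AT4G22470 was lower in DEX in Col as well, by a log2 difference of -0.54 ± 0.13 (SE), with a 95% interval of -0.81 to -0.27. That is 1.45-fold, with all 3 DEX arrays below all 3 mock arrays, which held for 21% of all probe sets in either direction and for 10.6% in this direction. The limma p was 0.000727 before and 0.105 after adjustment over 22746 probe sets, so the gene was not called. An exact two-sided permutation test gave p = 0.10, the smallest that 3 arrays against 3 allow.

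That outcome in Col changed in 2 of 18 alternatives to the main fit, and the cause was not tested. Fitting the 6 Col arrays alone gave a limma adjusted p of 0.0394, and array weights gave 0.0264, both under the threshold of 0.05. Without mock replicate 1 of Col, the highest of the mock arrays at 9.59, the difference was -0.40 (limma adjusted p = 0.320). As a sign of RNA quality, the 3' actin control probe set exceeded the 5' one by 0.94 ± 0.07 in the DEX and 1.22 ± 0.18 in the mock arrays of Col (log2, SD, n = 3 each), and the part of this in the result was not tested. In 35S:LOB-GR the same measure was 1.10 ± 0.06 in DEX and 1.10 ± 0.03 in mock medium. For the GAPDH control it was -0.32 ± 0.05 in DEX and -0.36 ± 0.09 in mock medium in 35S:LOB-GR, and -0.21 ± 0.08 in DEX and -0.17 ± 0.07 in mock medium in Col.

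Set side by side, the DEX responses of AT3G18280 were 1.50 in 35S:LOB-GR and -0.16 in Col, a difference of 1.66 ± 0.16 (log2, SE). Those of AT4G22470 were -2.66 in 35S:LOB-GR and -0.54 in Col, a difference of -2.12 ± 0.18. For AT3G18280 the sign of the mean response differed between the genotypes, and for AT4G22470 it was the same. These differences share the 6 arrays that chose the genes and were not tested.

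Without DEX the genotypes lay close together for both genes. In mock medium, 35S:LOB-GR minus Col was 0.06 ± 0.11 for AT3G18280 and -0.12 ± 0.13 for AT4G22470 (log2, SE), and the arrays overlapped in each case. In DEX, the difference was 1.72 ± 0.11 for AT3G18280, or 3.30-fold, and -2.24 ± 0.13 for AT4G22470, or 4.74-fold, with no overlap for either gene. Of all probe sets, 27.9% showed no overlap between the genotypes in mock medium (13% with 35S:LOB-GR lower) and 33.9% showed none in DEX (15.3% with 35S:LOB-GR lower).

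The wider family shows how the pair sits among its relatives. A list of 97 lipid transfer protein loci, sorted into 5 classes from general knowledge of the family and not from the files, held 44 genes with a one-gene probe set, so 42 other genes could be tested and 53 were not analysed here. Genes are called measured here and below if they had a one-gene probe set. The annotation gave no gene for 8730 probe sets, and whether these cover the genes left out was not checked. For DEX in 35S:LOB-GR, 1 of the 42 other genes rose, 8 fell and 33 were not called by limma (adjusted p under 0.05). Of all probe sets, 9.97% were called in that comparison, 3.97% higher and 5.99% lower. The calls over the whole table were 39.9% higher, and 53.0% higher once each array's median was subtracted. The 42 genes had a median log2 difference of -0.0011, against 0.02 for all probe sets, with 21 above and 21 below 0 and a range of -1.68 to 0.51. With the pair included, AT3G18280 had the highest and AT4G22470 the lowest of the 44 values, in the contrast by which they were picked.

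**Figure D2:**
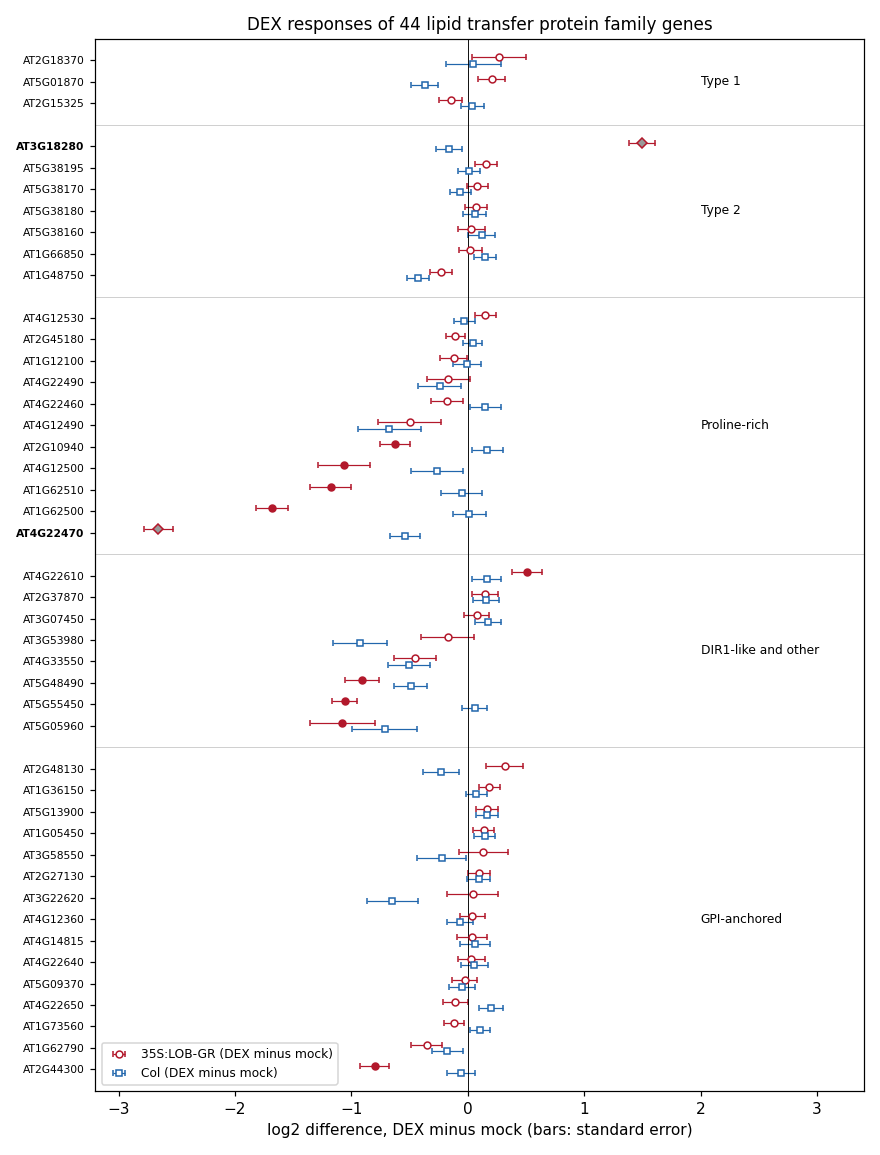
Log2 difference, DEX minus mock, of 44 lipid transfer protein family genes in 35S:LOB-GR (red circles) and in Col (blue squares), grouped by class and ordered by the 35S:LOB-GR value, with bars for the standard error. Filled symbols were called (limma adjusted p under 0.05), open ones were not, and grey diamonds are the 35S:LOB-GR values of AT3G18280 (1.50) and AT4G22470 (-2.66), which were not tested; the filled symbols to the left of 0 lie mostly in the proline-rich and the DIR1-like and other classes.

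The type 2 class of AT3G18280 had 6 other measured genes, AT1G48750, AT1G66850, AT5G38160, AT5G38170, AT5G38180 and AT5G38195. Limma called 0 of the 6 for DEX in 35S:LOB-GR, beside 9.97% of all probe sets. Their log2 differences ran from -0.23 to 0.16, and 1 had an unadjusted limma p under 0.05, beside 21.7% of all probe sets. The lowest of them, AT1G48750, was at -0.23 in 35S:LOB-GR and -0.43 in Col (limma adjusted p = 0.0969 in Col). The other 5 had at least 1 group mean under 4, near the low end of the values (2.71 was the lowest in the table), where differences are compressed, and no detection calls were used. Of the type 1 class, the classical lipid transfer proteins, 3 genes of 12 were measured, and limma called 0 for DEX in 35S:LOB-GR, with 0 at an unadjusted p under 0.05.

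The proline-rich class of AT4G22470 had 10 other measured genes, of which 4 fell for DEX in 35S:LOB-GR and 6 were not called. Of all probe sets, 5.99% were called lower in that comparison. The classes are small and were not tested as sets. AT1G62500 read 6.16, 5.97 and 6.41 in 35S:LOB-GR in DEX, against 7.66, 7.82 and 8.11 in mock medium (log2). It fell by 1.68 ± 0.14 (SE, limma adjusted p = 1.52e-06), and its DEX and mock arrays did not overlap. In Col it read 8.14, 8.47 and 8.30 in DEX, against 8.50, 8.18 and 8.19 in mock medium, a difference of 0.01 (limma adjusted p = 0.982).

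AT1G62510, whose locus number follows that of AT1G62500, fell as well. It read 9.92, 9.25 and 9.23 in 35S:LOB-GR in DEX, against 10.25, 10.77 and 10.92 in mock medium, a difference of -1.18 ± 0.18 (log2, SE, limma adjusted p = 0.000384). In Col it lay between 12.05 and 12.27 on all 6 arrays. AT1G62510 was thus lower in 35S:LOB-GR in mock medium too, by a log2 difference of -1.56 (limma adjusted p = 3.55e-05), where AT4G22470 was at -0.12.

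AT4G12500, a gene of the AZI1 and EARLI1 cluster, fell by 1.06 ± 0.22 in 35S:LOB-GR (log2, SE, limma adjusted p = 0.00584), with a mean of 4.70 ± 0.33 in DEX against 5.77 ± 0.32 in mock medium. AZI3 (AT4G12490) of the same cluster was at -0.50 in 35S:LOB-GR and -0.68 in Col, and neither was called. AT2G10940, named after its values were seen, fell by 0.63 ± 0.13 in 35S:LOB-GR (SE, limma adjusted p = 0.00576), with 12.47, 11.81 and 12.03 in DEX against 12.61, 12.79 and 12.79 in mock medium. AT4G12530, near the low end of the values at 3.85 ± 0.04 in 35S:LOB-GR and 3.53 ± 0.04 in Col, was the 1 gene of the other 42 called higher in 35S:LOB-GR than in Col in DEX, by 0.31 (limma adjusted p = 0.0228). That call ended without DEX replicate 2 or 3 of either genotype (limma adjusted p = 0.0576 to 0.0732).

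Among the 8 measured genes of the DIR1-like and other class, 3 fell and 1 rose for DEX in 35S:LOB-GR. The shares of all probe sets were 5.99% lower and 3.97% higher. AT5G05960 had the largest fall, -1.08 ± 0.28 (log2, SE, limma adjusted p = 0.0209), but its groups overlapped, with 6.39, 7.20 and 5.95 in DEX against 8.22, 7.14 and 7.41 in mock medium. The call on AT5G05960 ended in 5 of 18 alternatives, among them leaving out mock replicate 1 (-0.76), DEX replicate 1 (-1.02) or DEX replicate 3 (-0.80) of 35S:LOB-GR. AT5G55450, named after its values were seen, fell by 1.06 ± 0.11 (limma adjusted p = 1.35e-05), with 5.65, 5.77 and 5.83 in DEX against 6.87, 6.91 and 6.65 in mock medium.

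AT5G48490, known as DIR1-like for its similarity to the defence signalling protein DIR1, stepped down over the 4 groups. It read 7.79, 7.71 and 7.42 in 35S:LOB-GR in DEX, against 8.48, 8.43 and 8.74 in 35S:LOB-GR in mock medium, and 9.68, 9.79 and 9.49 in Col in DEX, against 10.15, 10.44 and 9.85 in Col in mock medium. No 2 groups overlapped. The fall in 35S:LOB-GR was 0.91 ± 0.15 (limma adjusted p = 0.000654), the value in Col was -0.49 ± 0.15 (limma adjusted p = 0.171), and the genotypes differed by -1.60 in mock medium (limma adjusted p = 4.54e-06).

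AT4G22610 was the 1 other family gene that rose, by 0.51 ± 0.13 in 35S:LOB-GR (log2, SE, limma adjusted p = 0.0167). Its arrays read 5.63, 5.59 and 5.10 in DEX, against 4.83, 4.85 and 5.12 in mock medium, and overlapped. That call ended in 5 of 18 alternatives: fitting only the 6 arrays compared (limma adjusted p = 0.0861), and leaving out DEX replicate 1 or 2 or mock replicate 1 or 2 of 35S:LOB-GR (limma adjusted p = 0.0619, 0.0756, 0.0700 and 0.0681). Of the 15 measured GPI-anchored genes, whose products are tethered to the plasma membrane, AT2G44300 fell by 0.80 ± 0.12 (limma adjusted p = 0.000406). The other 14 were not called, beside 9.97% of all probe sets called.

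**Figure D3:**
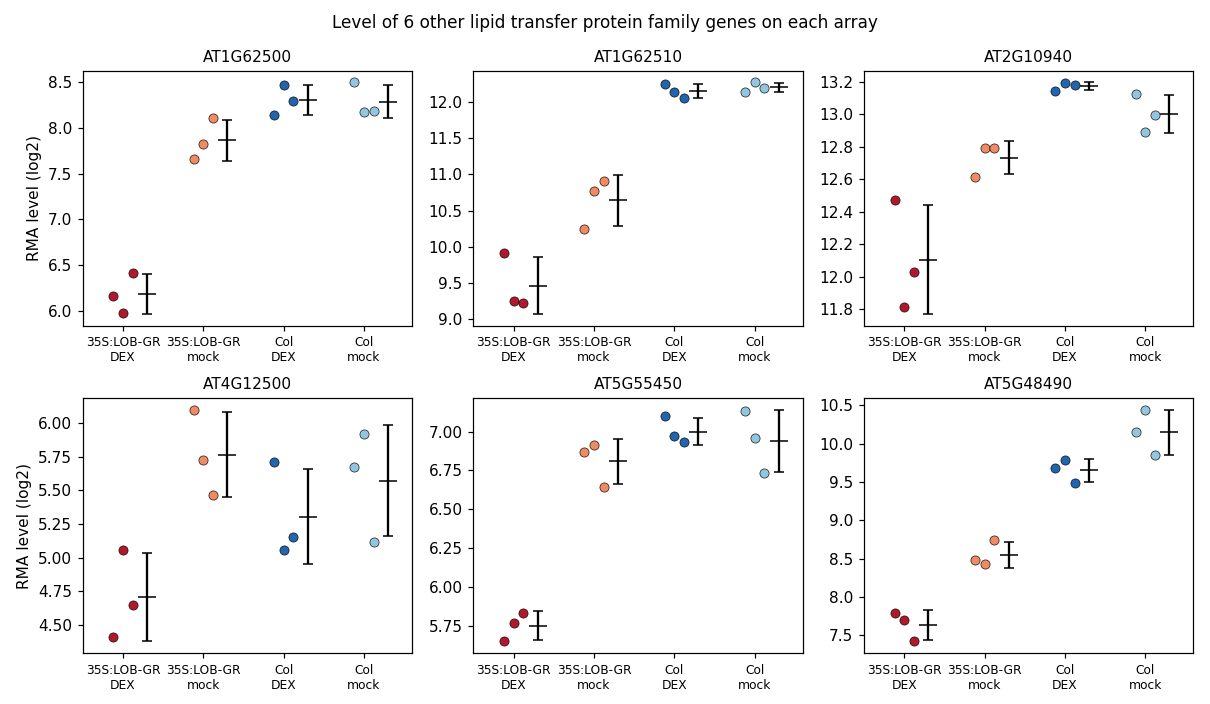
Level of 6 other lipid transfer protein family genes on each of the 12 arrays, in log2 units on axes that do not start at 0, with the mean and SD of 3 arrays beside the points. All 6 were among the genes called lower for DEX in 35S:LOB-GR, and each has its lowest mean there. For AT4G12500 the DEX arrays of the genotypes overlap. In mock medium AT1G62510 and AT5G48490 were called lower in 35S:LOB-GR than in Col (log2 differences of -1.56 and -1.60). The mock arrays of AT1G62500 and AT2G10940 also lie lower in 35S:LOB-GR without overlap, but those differences were not called.

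In Col, limma called 0 of the 42 genes, with 0.0572% of all probe sets called, 0.0132% higher and 0.044% lower. At an unadjusted p under 0.05 there were 8 of the 42, beside 12.7% of all probe sets. The median log2 difference of all 42 genes was 0.01, the same to 2 decimals as over all probe sets. For 10 of the 42 there was no overlap between Col arrays in DEX and in mock medium, and 8 of the 10 were lower in DEX, beside 21% of all probe sets in either direction and 10.6% lower. The lowest value was -0.93 ± 0.23 for AT3G53980 (log2, SE, limma adjusted p = 0.112). It was followed by -0.71 for AT5G05960, -0.68 for AZI3 and -0.65 for AT3G22620, all named after their values were seen. When only the 6 Col arrays were fitted, 6 of the 42 genes were called lower: these 4, AT4G33550 (-0.50) and AT1G48750. That fit called 1.79% of all probe sets.

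The DEX responses of 5 of the 42 genes differed between the genotypes, and each time the response, not always the level, was lower in 35S:LOB-GR. Of all probe sets, 4.77% were called in this comparison, 1.82% higher and 2.95% lower. The median difference of responses over the 42 genes was -0.01, against 0.01 over all probe sets. AT1G62500 (-1.70 ± 0.20, log2, SE, limma adjusted p = 0.000119), AT1G62510 and AT2G10940 belong to the proline-rich class. The others were AT5G55450 and AT2G44300. In DEX, AT2G44300 had a mean of 6.10 in 35S:LOB-GR and 6.22 in Col (log2), a difference that was not called. Without mock replicate 2 or DEX replicate 2 of Col, 3 genes were called.

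Genotypes in mock medium differed for 5 of the 42 genes, with 1 higher and 4 lower in 35S:LOB-GR, beside 10.9% of all probe sets called, 5.76% higher and 5.1% lower. The median was -0.07 over the 42 genes and 0.00423 over all probe sets (log2 difference). AT5G48490 and AT1G62510 had the lowest values, followed by AT3G53980 (-1.03, limma adjusted p = 0.00831) and the type 1 gene AT5G01870 (-0.38, limma adjusted p = 0.0465), both named after their values were seen. AT2G44300 was the higher one, at 6.90 ± 0.17 in 35S:LOB-GR against 6.28 ± 0.11 in Col (log2, SD, n = 3 each), by 0.62 ± 0.12 (SE, limma adjusted p = 0.00316).

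In DEX, 1 of the 42 genes was higher and 5 were lower in 35S:LOB-GR than in Col, beside 21.5% of all probe sets called, 11.7% higher and 9.74% lower. The median was -0.09, against 0.02 over all probe sets. AT1G62510 had the lowest value at -2.68 ± 0.18 (log2, SE, limma adjusted p = 4.65e-08), a mean of 9.47 ± 0.39 in 35S:LOB-GR against 12.15 ± 0.10 in Col (SD, n = 3 each). AT1G62500 followed at -2.12 ± 0.14 (limma adjusted p = 4.39e-08). Of the measured family, AT1G62510 alone had a lower value than AT4G22470 here. That rank uses the 35S:LOB-GR arrays in DEX by which AT4G22470 was picked, so it is a description.

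Neighbouring genes were looked up in the RefSeq annotation of TAIR10.1, 3 on either side of each gene. For AT4G22470, 2 of 6 neighbours were measured, and both are lipid transfer protein genes of the same proline-rich class. AT4G22460 was at -0.18 and AT4G22490 at -0.17 for DEX in 35S:LOB-GR (log2 differences, limma adjusted p = 0.515 and 0.685), and neither was called in any of the 5 comparisons. For AT3G18280, 2 of 6 were measured, AT3G18250 at -0.03 and AT3G18260 at -0.03, and neither was called in any comparison. Group means were 4.46 to 4.82 for AT3G18250, 3.88 to 4.03 for AT3G18260 and 4.65 to 5.01 for AT4G22460. These lie below the median of every array (5.88 or higher), where differences may be compressed. The group means of AT4G22490 were 9.09 to 9.70. The annotated span of AT4G22470 overlaps that of AT4G22467, and the table used gives no strand, so the probe set's assignment to AT4G22470 rests on the platform annotation. No annotated gene overlaps AT3G18280.

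The genes with the pattern most like each of the pair were taken from the other 13285 genes by the root mean square distance between profiles over the 12 arrays, each centred on its own mean. All profiles share the same 12 arrays and their normalisation. They were chosen for likeness to genes that were themselves chosen on these arrays, so their values are a description. For AT3G18280 they were BRL1, a brassinosteroid receptor (0.19, log2), EXPA4, an expansin that loosens cell walls (0.21), AT1G64405 (0.21), AT3G22540 (0.22) and AT1G48960 (0.23). The median distance of all genes was 0.71. It lies close to the root mean square of the centred profile of AT3G18280 itself (0.70), so it mostly gives the size of that profile. The DEX responses of these 5 genes ran from 1.01 to 1.86 in 35S:LOB-GR and from -0.14 to 0.21 in Col (log2 differences). BRL1 and AT3G22540 had group means under 4 outside 35S:LOB-GR in DEX, near the low end of the values.

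For AT4G22470 the nearest was AT3G19850, a gene of the NPH3 family, at a distance of 0.21. The median distance was 1.15, which mostly gives the size of the profile of AT4G22470 itself (root mean square 1.14). The responses of AT3G19850 were -2.40 in 35S:LOB-GR and -0.51 in Col (log2 differences), against -2.66 and -0.54 for AT4G22470. The next were the acyltransferase-family gene AT5G01210 (0.30), the receptor kinase gene AT4G34220 (0.42), MSRB9, a methionine sulfoxide reductase gene (0.43), and AT3G12710 (0.44). Their Col responses lay between -0.07 and 0.37, without a decrease of the size seen in AT4G22470 and AT3G19850. In the main fit the Col decrease was called for neither gene. AT3G19850 was also chosen for likeness on arrays that include those of Col.

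Mirror images were found as well. The profiles nearest to AT3G18280 turned upside down were AT3G56060, AT4G33420 and AT3G49220, at distances of 0.19 to 0.21, with DEX responses in 35S:LOB-GR of -1.29, -1.56 and -1.08 (log2 differences). For AT4G22470 they were the RING finger gene AT5G47610, the MYB-like gene AT1G70000 and AT1G64405, at 0.43 to 0.46. AT1G64405 thus stood both among the genes most like AT3G18280 and among those opposite to AT4G22470. The distance from AT3G18280 to AT4G22470 turned upside down was 0.54. With Pearson correlation in place of the distance, 1 of the 5 genes stayed for AT3G18280 (BRL1) and 2 of 5 for AT4G22470 (AT3G19850 and AT5G01210).

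**Figure D4:**
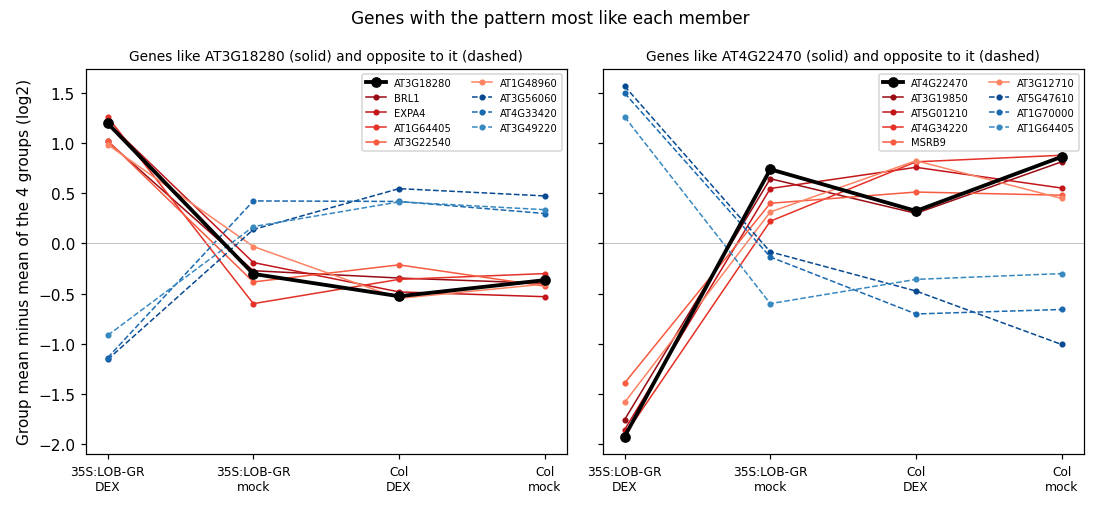
Group means of AT3G18280 (left) and AT4G22470 (right) in black, minus the mean of the 4 groups (log2), with the 5 genes of most similar profile in solid red and the 3 of most opposite profile in dashed blue. The genes of similar profile on the left share a high point in 35S:LOB-GR in DEX, and those on the right a low point there. AT3G19850 on the right also has a smaller step in Col (-0.51), which was not called.

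Lists of related functions were thinly covered by one-gene probe sets. Of 38 cuticle and suberin lipid genes, 1 had such a probe set, the wax ester synthase gene WSD1. It was at -0.10 for DEX in 35S:LOB-GR and was not called in any comparison. Of 23 systemic acquired resistance and defence genes, 3 had such a probe set. The rest of both lists was left out by this rule, which does not show that the array lacks them. WRKY53, a transcription factor of defence and senescence, fell by 1.53 ± 0.25 for DEX in 35S:LOB-GR (log2, SE, limma adjusted p = 0.000827), with 4.25, 3.77 and 3.75 in DEX against 5.14, 6.15 and 5.08 in mock medium. In DEX it thus lay close to the lowest values of the table. BIK1, a kinase of immune signalling, was at -0.34 and the defensin gene PDF1.2 at -0.47, neither called. In Col, WRKY53 was at -0.57, BIK1 at -0.07 and PDF1.2 at -0.31, and none was called.

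In mock medium WRKY53 (0.82, limma adjusted p = 0.0494) and BIK1 (0.43, limma adjusted p = 0.0173) were higher in 35S:LOB-GR than in Col. The WRKY53 call ended in 10 of 18 alternatives, and leaving out mock replicate 2 of 35S:LOB-GR gave 0.47 (limma adjusted p = 0.207). The BIK1 call ended without mock replicate 1 or 3 of Col, or mock replicate 1 of 35S:LOB-GR (limma adjusted p = 0.0786, 0.0813 and 0.0662).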

How the data were processed

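The authors deposited RMA values in log2 units for each array, per the submitters' processing notes, and no version of RMA is given there. RMA subtracts background, gives every array the same distribution and combines the probes of a set, so a shift of most transcripts one way would be reduced. Of 22810 probe sets, 64 controls were left out and 22746 tested. The platform annotation gave 1 gene for 13513 of these, several genes for 503, and none for 8730, left without a name. Through Entrez identifiers 13436 matched RefSeq (TAIR10.1), standing for 13286 genes, and the probe set of highest mean stood for a gene.

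The 4 groups were fitted together on the 12 arrays with limma 3.58.1 (R 4.3.3), with no block for replicate number, and contrasts tested two-sided with eBayes (8 residual and 6.86 prior degrees of freedom). P values were Benjamini-Hochberg adjusted over all 22746 probe sets and called under 0.05. Alternatives were another centring, a filter on dim probe sets, trended and robust variances, array weights, fewer groups in the fit, a replicate block, a stricter threshold and each array left out. The number of arrays limits the precision.

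Members and lists were chosen with earlier results of these data known. The naming rule took, from each list, up to 4 called rises and 4 falls for DEX in 35S:LOB-GR, calls in Col, 2 per direction for each genotype comparison, the 5 nearest and 3 opposite profiles and measured neighbours. Deviations from the group means correlated over 0.1 in 2 of 18 pairs of same-numbered arrays and in 8 of 36 pairs of other numbers. Deviations within a group are taken from its own mean, so these pairs are not independent. No coordinates are given.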

Additional observations from a re-analysis of the deposited data

Results flagged for a closer look

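The DEX responses of 5 lipid transfer protein family genes other than the pair differed between 35S:LOB-GR and Col by the test of the difference itself (limma, adjusted over 22746 probe sets). AT1G62500 differed by -1.70 on the log2 scale, with a response of -1.68 in 35S:LOB-GR and 0.01 in Col (limma adjusted p = 0.000119). AT1G62510 differed by -1.13, with -1.18 in 35S:LOB-GR and -0.05 in Col (limma adjusted p = 0.0162). AT5G55450 differed by -1.12, with -1.06 in 35S:LOB-GR and 0.06 in Col (limma adjusted p = 0.000554). AT2G10940 differed by -0.79, with -0.63 in 35S:LOB-GR and 0.17 in Col (limma adjusted p = 0.0232). AT2G44300 differed by -0.74, with -0.80 in 35S:LOB-GR and -0.06 in Col (limma adjusted p = 0.0206). The calls on AT1G62500, AT1G62510 and AT5G55450 held with any 1 array left out, those on AT2G10940 and AT2G44300 did not.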

How the results depend on the processing

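With each array left out, AT3G18280 ran from 1.39 to 1.57 and AT4G22470 from -2.75 to -2.52 for DEX in 35S:LOB-GR (log2 differences). The genotype difference in mock medium, near 0, ran from -0.02 to 0.11 for AT3G18280 and from -0.26 to 0.01 for AT4G22470. In Col, AT3G18280 stayed uncalled in all 18 alternatives (limma adjusted p of 0.409 to 0.852). AT4G22470 in Col became called with array weights (-0.57, limma adjusted p = 0.0264) and with only the 6 Col arrays (-0.54, limma adjusted p = 0.0394). It stayed uncalled in the other 16, and with each array left out it ran from -0.64 to -0.40. Family genes called in Col were 0 as reported, 0 with each array left out, 2 with array weights and 6 with only the Col arrays. The number with differing responses was 5, 3 to 6 with each array left out, and 2 at an adjusted p under 0.01. Defence genes called for DEX in 35S:LOB-GR were 1, 2 with array weights, and 1 to 2 with each array left out. Those called between genotypes in mock medium were 2, 1 with trended and robust variances, 1 with only the arrays compared, 0 at an adjusted p under 0.01, and 0 to 2 with each array left out. The replicate block left AT4G22470 in Col at -0.54 (limma adjusted p = 0.138) and 9 other family genes called for DEX in 35S:LOB-GR. It changed no call on the pair, and the labels do not say that the numbers pair the samples. Over all probe sets it left 2177 calls for DEX in 35S:LOB-GR, against 2267 without it, and 8 in Col, against 13. Over all probe sets the count for DEX in Col was also 407 with only the Col arrays, 399 with array weights, 141 without DEX replicate 1 of 35S:LOB-GR and 2 without mock replicate 1 of Col. For DEX in 35S:LOB-GR it was 1500 with only the 6 arrays compared. The cause of these changes was not tested. WSD1, as a dim probe set, gave no value under the filter. Probe sets near the low end, such as most type 2 genes, have no detection call here, which limits what their differences can show.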
